A study of Mus musculus with 6 samples.

Results

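The genes described here are the nuclear receptors, taken as every symbol of the deposited gene lists with the family pattern Nr, a digit, a letter and a digit, which gave 25 genes, together with 22 receptors that carry other names, such as *Esr1* and *Rora*. These 47 genes stand among 26251 listed. The rule names symbols and uses no measured level, and it was set with earlier results of these data known. Their transcripts were counted by single cell mRNA sequencing of gonads of mouse embryos at E15.5 in 3 groups, with 2 libraries each. Control XY testes and control XX ovaries came from Amh+/+; Inhbb+/+ embryos, and dKO XY testes from Amh-/-; Inhbb-/- embryos. *Amh* encodes anti-Müllerian hormone and *Inhbb* the subunit of activin B. The lines were crossed in C57BL/6 background, the null alleles were inherited rather than deleted by a tissue-specific driver, and no agent was given. The cells of every group were dissociated with enzymes, frozen and thawed before capture, and the gonads of an embryo were pooled. The sources used here do not say whether the 2 libraries of a group came from separate litters, so a p-value between groups measures the spread between libraries alone. Where classes of the same libraries are compared, the shift between libraries is taken out. A p-value there measures the spread that remains, shared over all classes, and still rests on 2 libraries per group.

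Nuclear receptors are transcription factors, many of which are switched by a small lipid-soluble ligand such as a steroid, thyroid hormone, retinoic acid, vitamin D or a fatty acid. Others have no known natural ligand and are called orphan receptors. Most bind DNA as pairs of receptors, often with a retinoid X receptor (*Rxra*, *Rxrb*, *Rxrg*) as partner, whereas *Nr0b1* (DAX1) and *Nr0b2* (SHP) lack a DNA-binding domain and act on other receptors. In the fetal gonad, *Nr5a1* (SF1) is needed for the gonad to form and switches on steroidogenic genes in Leydig cells, *Nr2f2* (COUP-TFII) marks the stroma, and *Nr0b1* in excess disturbs testis formation.

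Of 68064 barcodes, 39350 passed the filter, between 4781 and 8569 per library, with 118475468 to 221675316 UMIs (unique molecular identifiers, 1 per captured mRNA molecule). Any pair of libraries shared 4 to 25 barcodes. Of the barcodes of the dKO XY libraries, 24.4% and 28.3% had at least 25% mitochondrial UMIs and were left out, against 2.22% to 9.35% in the other libraries. Clusters were grouped into 8 cell classes by markers: supporting (Sertoli and granulosa), interstitial, Leydig, germ, endothelial, pericyte, immune and epithelial cells. Levels are given as CPM, the UMIs of a gene per 1000000 UMIs of the cells of a class in a library. A CPM counts molecules and not bases, so it is not scaled by gene length, and the capture of each gene's 3′ end can differ between genes. In the Sertoli-like cells, *Amh* stood at 2516 and 2277 CPM in control XY, against 24.6 and 19.7 CPM in dKO XY. *Inhbb* stood at 196 and 219 CPM in control XY, against 57.8 and 61.6 CPM in dKO XY. The position of the deletions relative to the counted 3′ ends is not given in the sources used here, so the UMIs left in dKO XY were not assigned to an intact or a deleted transcript. The dKO XY replicate 2 library stood apart in the genes that dissociation switches on, with a sum over 13 immediate early genes of 4467 CPM in interstitial cells, against 11193 to 13870 CPM in the other 5 libraries.

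Of the 47 receptors, 42 had a mean of at least 1 CPM in some class and group with 2 libraries. The least abundant were *Hnf4a*, *Nr2e1* and *Hnf4g*, with 4, 7 and 11 UMIs in all kept cells, and each of these was missing from the gene list of 1 library. A few receptors made up most of the family's mRNA: *Nr2f2*, *Thra*, *Nr4a1* and *Nr2f6* together held 67.5% of its 1379616 UMIs. The receptor with the highest level differed among the classes. In every library it was *Nr2f2* in interstitial cells and *Nr5a1* in Leydig cells. In supporting cells it was *Thra*, a thyroid hormone receptor, in all 4 XY libraries and *Nr4a1*, an orphan receptor induced within minutes by many stimuli, in both control XX libraries. In germ cells it was *Nr2f6*, an orphan receptor, in both dKO XY libraries, whereas in control XX it was *Nr3c1* in replicate 1 and *Nr2c2* in replicate 2. *Nr2f2* led in pericytes and epithelial cells of all 4 XY libraries, and the control XX libraries were split between *Nr2f2* and *Nr4a1*. In endothelial and immune cells *Nr4a1* led in both control XY libraries, and elsewhere in these classes the order of *Nr4a1* and *Nr2f2* differed between the libraries of a group, other than in control XX immune cells, where *Nr4a1* led in both. The map of levels by class and group shows each group in its own column.

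**Figure D1:**
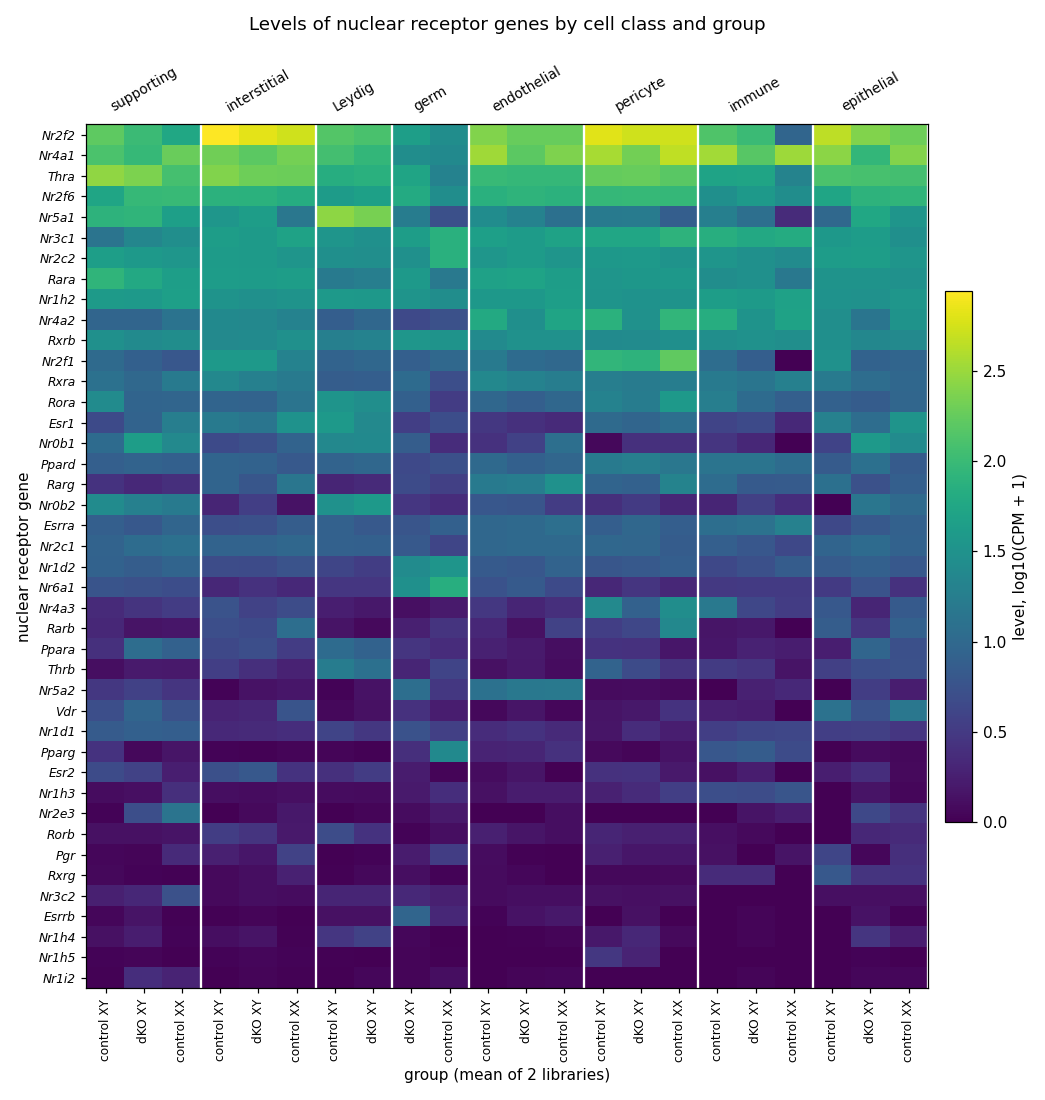
Heat map of the mean level of 42 nuclear receptor genes (rows, italic symbols) in 8 cell classes and 3 groups (columns, mean of 2 libraries), as log10(CPM + 1) on the colour scale. *Nr2f2* is brightest in interstitial cells and pericytes, *Nr5a1* in Leydig cells and *Thra* in XY supporting cells, while *Pparg*, *Esrrb* and *Nr6a1* rise above their level elsewhere in germ cells of 1 or both groups.

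*Nr2f2* stood at 877 and 883 CPM in control XY, 599 and 728 CPM in dKO XY and 561 and 530 CPM in control XX interstitial cells. *Nr5a1* stood at 263 and 288 CPM in control XY and 178 and 263 CPM in dKO XY Leydig cells, so that the higher dKO XY library and the lower control XY library were less than 1 CPM apart. *Thra* stood at 290 and 276 CPM in control XY, 256 and 207 CPM in dKO XY and 119 and 116 CPM in control XX supporting cells, with both control XX libraries below all XY libraries. Free RNA in droplet data can give a gene UMIs in cells that do not express it. *Nr5a1* stood at 12.7 and 22.5 CPM in control XY immune cells and at 23.4 and 28.6 CPM in control XY endothelial cells. In control XX, where no Leydig cells were found, it stood at 0 and 2.63 CPM in immune and 13.5 and 9.02 CPM in endothelial cells. The part of free RNA in these levels was not tested, so levels of *Nr5a1* up to that of these cells are not read as expression. *Nr2f2* in immune cells stood at 108 and 159 CPM in control XY and 84.0 and 115 CPM in dKO XY, against 2.89 and 13.2 CPM in control XX. The part of free RNA in its rank in immune cells was not tested.

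How the receptors were divided among cell classes was tested within libraries, with the library as a block. Of 42 receptors tested, 30 differed between Leydig and interstitial cells of control XY, where 63.4% of all genes tested were called. Of these, 15 were higher and 15 lower (32.4% and 31.0% of all genes). *Nr5a1* was 3.29 ± 0.12 (log2, SE) higher in Leydig cells, *Nr0b2* 5.15 ± 0.23 higher (29.5 against 1.01 CPM) and *Nr0b1* 2.99 ± 0.15 higher (23.0 against 3.54 CPM). The thyroid hormone receptors went opposite ways. *Thrb* was 2.98 ± 0.24 higher in Leydig cells (16.1 against 2.49 CPM), whereas *Thra* fell by 1.55 ± 0.10 (67.9 against 244 CPM). *Rora*, a receptor for sterol ligands, was 2.34 ± 0.15 higher in Leydig cells, and the estrogen receptor *Esr1* 1.57 ± 0.11 higher. The retinoic acid receptors *Rara*, *Rarb* and *Rarg* were all lower in Leydig cells, *Rarg* by the ratio of 0.995 to 7.92 CPM. The adjusted p of the genes named here, by edgeR's quasi-likelihood test with Benjamini-Hochberg adjustment, lay between 1.51e-20 for *Nr5a1* and 7.63e-08 for *Rarb*.

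Supporting cells differed from interstitial cells of the same libraries in 30 of 42 receptors in control XY, against 53.4% of all genes, with 15 higher (28.1% of all genes) and 15 lower (25.3%). In control XX, 28 differed, against 62.3% of all genes, with 15 higher (34.6%) and 13 lower (27.7%). In both sexes *Nr0b2*, *Nr0b1* and *Nr5a1* were higher in supporting cells and *Nr2f2*, *Rarb* and *Rarg* lower. *Nr2f2* was lower by the largest number of molecules, with 161 against 880 CPM in control XY and 55.5 against 546 CPM in control XX. *Thra* did not pass the test in control XY (283 against 244 CPM, adjusted p = 0.0925) and fell by 0.85 ± 0.10 in control XX (118 against 192 CPM). *Nr2e3*, an orphan receptor known from photoreceptors, stood at 12.6 CPM in supporting cells of control XX, 4.53 ± 0.36 (log2) above interstitial cells.

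The main question of the series is how the loss of AMH and activin B changes the cells of the fetal testis. In supporting cells, 12 of 40 receptors tested differed between dKO XY and control XY, where 17.2% of all genes were called. Of these, 8 were higher and 4 lower, against 10.1% and 7.07% of all genes. The other 7 of the 47 had counts too low for the test. The median log2 fold change over the 40 was -0.06 (0.01 over all genes). Without control XY replicate 2, the count was 7, where 7.17% of all genes were called. The receptors that rose were *Nr0b1*, *Ppara*, *Nr2f6*, *Vdr*, *Nr3c1*, *Esr1*, *Nr2e3* and *Nr1i2*, and those that fell were *Rora*, *Nr2f2*, *Rara* and *Pparg*. Between control XX and control XY supporting cells, 19 of 40 were called, against 48.8% of all genes, with 11 higher (25.1% of all genes) and 8 lower (23.7%). Between dKO XY and control XX, 16 were called, against 40.2%, with 9 higher (20.9%) and 7 lower (19.3%). The comparisons share libraries, so each receptor is given below with its level in all 3 groups.

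**Figure D2:**
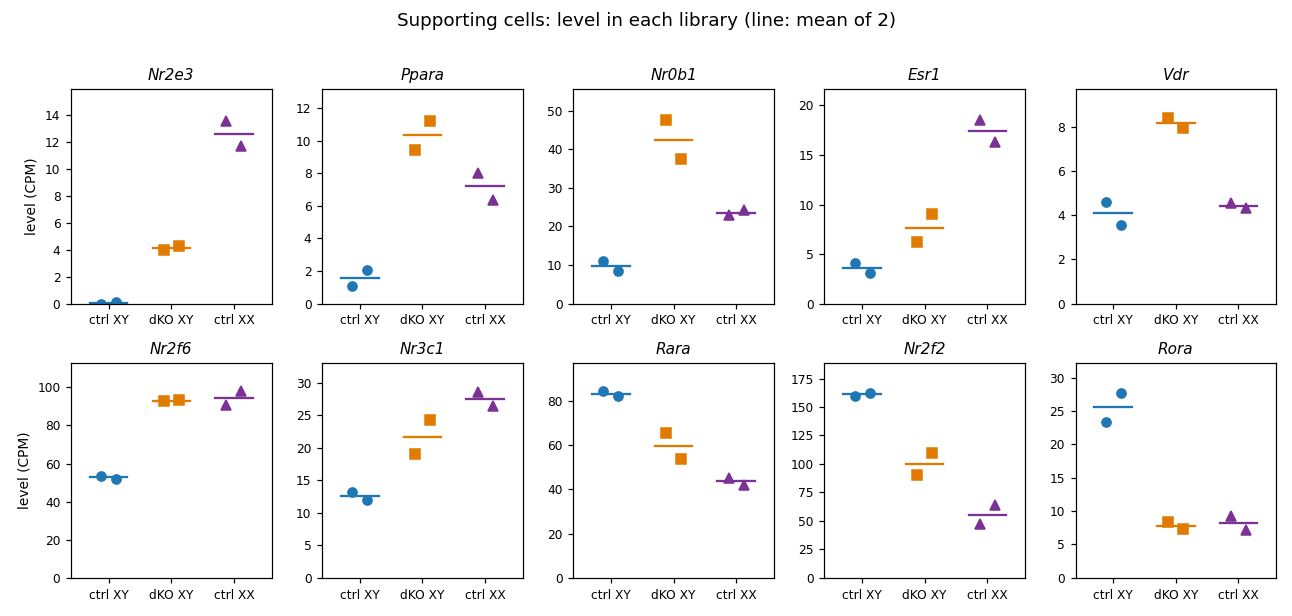
Level in CPM (vertical axis, from 0) of 10 nuclear receptor genes in the supporting cells of each library, with 2 points per group and a line at their mean. For *Nr0b1*, *Vdr* and *Ppara* both dKO XY points lie above the points of the 2 control groups, for *Rora* and *Nr2f6* the dKO XY points lie at the level of control XX, and for *Esr1*, *Nr2e3*, *Nr3c1*, *Rara* and *Nr2f2* they lie between the control groups.

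*Nr0b1* (chromosome X, 86191764 to 86195947 on GRCm38), which represses transcription driven by *Nr5a1*, stood at 11.1 and 8.58 CPM in control XY, 47.6 and 37.3 CPM in dKO XY and 23.0 and 24.1 CPM in control XX. The dKO XY libraries were thus the highest of the 6, and no groups overlapped. The log2 fold change was 2.15 ± 0.17 against control XY (adjusted p = 5.36e-05) and 0.92 ± 0.15 against control XX (adjusted p = 0.00107). *Vdr*, the vitamin D receptor (chromosome 15, 97854425 to 97910630), also had its highest libraries in dKO XY, with 4.59 and 3.57 CPM in control XY, 8.40 and 7.93 CPM in dKO XY and 4.54 and 4.33 CPM in control XX. It was 1.04 ± 0.21 higher than in control XY and 0.94 ± 0.19 higher than in control XX, while the 2 control groups overlapped (adjusted p = 0.736).

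*Ppara*, the fatty acid receptor that switches on fatty acid oxidation and ketone body synthesis (chromosome 15, 85734983 to 85802819), stood at 1.09 and 2.07 CPM in control XY, 9.40 and 11.2 CPM in dKO XY and 8.02 and 6.37 CPM in control XX. It rose by 2.63 ± 0.29 (adjusted p = 0.000276), and its difference of 0.58 ± 0.22 from control XX did not pass the test (adjusted p = 0.0616). *Nr2f6* (chromosome 8, 71374123 to 71381960), whose exons overlap those of *Ocel1* on the other strand, had 53.7 and 52.2 CPM in control XY, 92.6 and 93.3 CPM in dKO XY and 90.8 and 98.3 CPM in control XX. All dKO XY and control XX libraries lay above control XY, the log2 difference from control XY was 0.83 ± 0.11 (adjusted p = 0.000961), and the dKO XY values lay within the range of control XX. The sources used here do not say whether counting used strand, so whether reads of *Ocel1* where they overlap could count for *Nr2f6* is not known here.

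*Rora* (chromosome 9, 68653786 to 69388246) showed the opposite change. The level was 23.4 and 27.7 CPM in control XY, 8.40 and 7.26 CPM in dKO XY and 9.26 and 7.11 CPM in control XX. It fell by 1.70 ± 0.18 in dKO XY (adjusted p = 0.000225) and by 1.69 ± 0.18 in control XX, and dKO XY and control XX overlapped (difference -0.010 ± 0.18). *Rora* also overlaps a gene on the other strand, Gm15511. *Nr0b1*, *Ppara*, *Nr2f6* and *Rora* passed the test in all 11 alternative settings fixed with the design.

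For *Nr0b1* and *Ppara*, which rose by over 2 on the log2 scale to a mean of at least 10 CPM in dKO XY, and for *Rora*, which fell, the windows around the RefSeq start sites are shown, 250 bases before and 50 after the start, on GRCm38.p6 and in the direction of transcription. Capitals mark AGGTCA, the hexamer that many nuclear receptors bind, searched on both strands (AGGTCA and TGACCT).

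Nr0b1: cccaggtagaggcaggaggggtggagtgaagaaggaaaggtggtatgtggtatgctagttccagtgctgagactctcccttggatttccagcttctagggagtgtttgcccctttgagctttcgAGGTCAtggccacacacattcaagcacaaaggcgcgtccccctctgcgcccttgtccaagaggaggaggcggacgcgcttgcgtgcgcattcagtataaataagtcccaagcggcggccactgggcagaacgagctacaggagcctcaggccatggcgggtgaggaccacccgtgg

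Ppara: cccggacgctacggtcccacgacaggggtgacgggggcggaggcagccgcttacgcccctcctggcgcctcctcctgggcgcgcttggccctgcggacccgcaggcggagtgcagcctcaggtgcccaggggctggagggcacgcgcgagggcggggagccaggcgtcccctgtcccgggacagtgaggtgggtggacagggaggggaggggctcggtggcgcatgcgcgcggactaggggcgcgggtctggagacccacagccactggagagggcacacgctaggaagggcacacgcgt

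Rora: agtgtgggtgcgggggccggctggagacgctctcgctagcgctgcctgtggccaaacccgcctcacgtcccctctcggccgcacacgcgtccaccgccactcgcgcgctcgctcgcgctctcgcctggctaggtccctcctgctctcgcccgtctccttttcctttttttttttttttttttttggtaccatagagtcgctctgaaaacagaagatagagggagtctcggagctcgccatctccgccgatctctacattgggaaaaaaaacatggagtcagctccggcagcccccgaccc

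The *Nr0b1* window (chrX:86191525-86191824, plus strand) holds the hexamer once, with its first base 126 bases before the start, and the windows of *Ppara* (chr15:85735526-85735825, plus strand) and *Rora* (chr9:68653536-68653835, plus strand) hold none. Of the 47 receptors, 43 have windows in the RefSeq table, and the 4 without are *Nr5a1*, *Thra*, *Nr3c1* and *Hnf4g*. The hexamer stands in 12 of their 64 windows (18.8%) and in 5340 of all 32851 windows (16.3%). A match describes the letters and shows no binding.

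The remaining receptors called in dKO XY supporting cells lay between the control groups or at low levels. *Nr3c1*, the glucocorticoid receptor, stood at 13.2 and 11.9 CPM in control XY, 19.0 and 24.2 CPM in dKO XY and 28.6 and 26.5 CPM in control XX, a rise of 0.81 ± 0.17 over control XY (adjusted p = 0.00914). *Rara*, the main retinoic acid receptor of these cells, stood at 84.6 and 82.2 CPM, 65.7 and 53.6 CPM and 45.3 and 41.9 CPM in the same order, and fell by 0.47 ± 0.13 in dKO XY (adjusted p = 0.0308). For both receptors the 3 groups did not overlap.

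*Nr2f2* stood at 160 and 162 CPM in control XY, 90.5 and 110 CPM in dKO XY and 46.9 and 64.0 CPM in control XX, a fall of 0.67 ± 0.16 in dKO XY (adjusted p = 0.0185). The 8 interstitial markers summed to 1148 and 1325 CPM in supporting cells of control XY. Their sum was 659 and 534 CPM in dKO XY and 540 and 814 CPM in control XX. It was thus also highest in control XY, but unlike *Nr2f2* it overlapped between dKO XY and control XX. In Sertoli-like cells, chosen without cells rich in *Tcf21*, the same sum was 177 to 313 CPM and *Nr2f2* stood at 25.6 and 35.8 CPM in control XY and 30.05 and 37.3 CPM in dKO XY, with overlapping groups. The limits on *Sycp3* and *Tcf21* left out 172 of 817 control XY and 197 of 2244 dKO XY supporting cells. *Tcf21* is the study's marker of interstitial cells, so the low sum is not independent of that choice. The part of interstitial RNA in the fall of *Nr2f2* was not tested.

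*Esr1* stood at 4.10 and 3.07 CPM in control XY, 6.19 and 9.04 CPM in dKO XY and 18.5 and 16.3 CPM in control XX, a rise of 1.14 ± 0.26 (adjusted p = 0.0141) to a level still 1.13 ± 0.21 below control XX. *Nr2e3* had 0 and 2 UMIs in the control XY libraries, equal to 0 and 0.125 CPM, against 3.999 and 4.29 CPM in dKO XY and 13.5 and 11.7 CPM in control XX. From the summed UMIs, 295 against 2, its ratio of dKO XY to control XY was 50.2 (exact 95% interval 13.8 to 416, counting error only). *Nr1i2*, the xenobiotic receptor PXR, had 101 UMIs in dKO XY against 1 in control XY, a ratio of 34.4 (6.03 to 1370). *Nr2e3* shares exon sequence with Gm15507 on its own strand, so its UMIs may be split between them.

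*Pparg* fell in dKO XY supporting cells, but from a mean of 1.73 CPM that rests on few cells. The 12 control XY replicate 1 cells of 1 subcluster held *Pparg* at 54.9 CPM, *Esr2* at 57.4 CPM and *Nr5a2* at 37.4 CPM. The 28 cells of the same subcluster in replicate 2 had 6.97, 26.1 and 1.74 CPM. The source of their RNA was not tested.

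The receptors *Thra*, *Nr5a1*, *Esr2*, *Nr1h3*, *Nr3c2* and *Pgr* passed the test between control XX and each XY group, and did not pass it between dKO XY and control XY. *Thra* and *Nr5a1* were the most abundant of them. *Thra* was 1.32 ± 0.13 lower in control XX than in control XY and 1.04 ± 0.13 higher in dKO XY than in control XX, while its difference of -0.28 ± 0.13 between the XY groups did not pass the test (adjusted p = 0.183). *Thra* and *Nr1d1* overlap in exons on opposite strands, and *Nr1d1* was at 5.79 to 7.65 CPM in all 6 libraries. *Nr5a1* stood at 70.5 and 86.5 CPM in control XY, 77.3 and 88.6 CPM in dKO XY and 48.0 and 40.8 CPM in control XX. The dKO XY level was 0.97 ± 0.15 above control XX (adjusted p = 0.000586), and control XY and dKO XY overlapped.

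The supporting class holds different cells in the 3 groups. At a clustering resolution of 0.5, 105 and 77 of its control XX cells stood in a cluster led by *Sycp3* and *Syce3*, genes of meiosis. Of its dKO XY cells 2 and 4 stood there, and all of these stayed in the supporting class in the main test. A cluster of 957 cells led by *Myl1*, *Cck* and *Pnmt* came mostly from dKO XY, 459 and 454 cells against 16 and 21 in control XY. Without it, 8 receptors were called between dKO XY and control XY, all of them among the 12, where 16.3% of all genes were called, an alternative chosen after seeing the data. *Nr0b1* was then 2.30 higher, *Ppara* 2.56, *Vdr* 1.49 and *Nr2f6* 0.74, and *Rora* and *Nr2f2* fell by 1.76 and 1.36. The rise of *Esr1* was gone (log2 fold change -0.011, adjusted p = 0.997), and *Nr3c1* (0.36, adjusted p = 0.196) and *Rara* (-0.32, adjusted p = 0.123) no longer passed.

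When the supporting cells were clustered again, 783 of the 913 dKO XY cells of this cluster fell in 1 subcluster, led by *Tnnt2*, *Spon1* and *Smoc2*, which held 894 dKO XY cells of 961 in all. It met the marker rule of neither Sertoli nor granulosa cells and stays unnamed. Its levels were set there against the other supporting cells, which include Sertoli and granulosa cells. Of these 2 lists, that of granulosa cells led the subcluster, with 1 marker past the limits and a mean log2 fold of -1.46. The cluster led by *Myl1* and *Cck* had met the rule for supporting cells with 4 markers. Of all the marker lists, that of Leydig cells led the subcluster, and *Cyp11a1*, the side-chain cleavage enzyme of steroid synthesis, was among its 10 leading genes. The 6 Leydig markers summed to 480 and 424 CPM in its dKO XY cells, against 112 and 138 CPM in dKO XY Sertoli-like cells and 23309 and 23142 CPM in dKO XY Leydig cells, with none at 0. The 8 interstitial markers summed to 680 and 586 CPM, against 202 and 177 CPM in the Sertoli-like cells. The part of such RNA in the receptor levels of the subcluster was not tested. Beside the Sertoli-like cells of the same dKO XY libraries, it had less *Thra* (149 and 125 against 340 and 300 CPM), less *Rara* (43.5 and 43.1 against 82.7 and 66.3 CPM) and less *Vdr* (3.93 and 2.93 against 12.3 and 13.8 CPM). It had more *Nr2f2* (118 and 144 against 30.05 and 37.3 CPM), *Nr3c1* (31.6 and 33.7 against 11.1 and 12.6 CPM) and *Esr1* (12.8 and 15.2 against 1.30 and 2.63 CPM). The *Nr0b1* level was near in both, with 50.1 and 39.2 CPM against 50.5 and 39.4 CPM, as was that of *Rora*, with 7.32 and 7.38 CPM against 9.01 and 7.30 CPM. Cells were divided with many variable genes, from which *Nr0b1*, *Nr5a1* and 7 other receptors had been taken out, so that no receptor was used. The values describe the subclusters and were not tested.

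Within Sertoli-like cells alone, 596 in control XY and 1046 in dKO XY, 7 of 29 receptors tested were called, where 15.6% of all genes were called. Of these, 5 were higher and 2 lower, against 9.28% and 6.27% of all genes. *Nr0b1* stood at 11.02 and 9.41 CPM in control XY, against 50.5 and 39.4 CPM in dKO XY, 2.11 ± 0.18 higher (adjusted p = 7.56e-06). *Vdr* stood at 5.43 and 4.34 CPM against 12.3 and 13.8 CPM, 1.41 ± 0.23 higher (adjusted p = 0.00109). *Nr2f6* rose from 51.5 and 50.5 CPM to 89.0 and 88.0 CPM, by 0.75 ± 0.13. In none of these did the groups overlap, as in all 7 called. How often groups do not overlap over all genes was not computed.

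*Rora* fell in Sertoli-like cells from 26.1 and 32.6 CPM to 9.01 and 7.30 CPM, by 1.90 ± 0.18 (adjusted p = 1.85e-05). *Nr0b2*, a corepressor that lacks a DNA-binding domain as *Nr0b1* does, fell from 38.3 and 25.9 CPM to 21.8 and 16.7 CPM, by 0.76 ± 0.20 (adjusted p = 0.0215), and lost the call in 1 of 10 alternatives. *Nr0b1* and *Nr0b2* thus moved in opposite directions in these cells. *Ppara* (0.848 and 1.72 against 8.86 and 8.71 CPM) and *Nr2e3* (1 UMI in all against 55) were higher at low levels. The 8 granulosa markers had a summed level of 26.3 and 26.3 CPM in control XY and 118 and 166 CPM in dKO XY Sertoli-like cells, with 1 marker at 0 in control XY replicate 1. The 7 germ cell markers summed to 56.8 and 38.4 CPM against 179 and 247 CPM, with none at 0. Their part in these differences was not tested.

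The levels of genes known to respond to these receptors, or to work with them, were read from short lists chosen with earlier results known. *Ppargc1a*, a coactivator of PPARs and other receptors, was 1.63 ± 0.32 higher in dKO XY Sertoli-like cells (2.71 and 2.13 against 6.16 and 8.91 CPM), while *Ncoa1* was lower and the other 12 of 14 coactivators did not pass the test, where 15.6% of all genes were called. In the whole supporting class 5 coactivators were lower (*Ncoa1*, *Ncoa2*, *Ncoa7*, *Med1* and *Pprc1*) and none higher, where 7.07% of all genes were lower and 10.1% higher.

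Of 8 retinoid target genes, 6 were tested in Sertoli-like cells, and 2 of them, *Stra8* and *Rec8*, were higher in dKO XY, while the other 4 did not pass the test. Over all genes 9.28% were higher there and 6.27% lower, and the lists named here are too short for their counts to be read against these shares. *Stra8* and *Rec8* are genes of meiosis. *Stra8* stood at 0.170 and 0 CPM against 2.60 and 4.10 CPM, and *Rec8* at 1.02 and 1.15 CPM against 8.01 and 10.96 CPM, beside the germ cell marker sums given above. Both were also called higher in interstitial and Leydig cells of dKO XY. *Klf9*, a glucocorticoid target, was 1.15 ± 0.20 higher (7.80 and 8.18 against 20.7 and 15.9 CPM), while the other 4 tested of the 6 on that list did not pass. Of 6 estrogen and progesterone targets 2 were tested: *Greb1* fell by 1.41 ± 0.19 (96.1 and 111 against 31.9 and 48.8 CPM), and *Adamts1* did not pass. In the same cells *Esr1* stood at 2.54 and 1.15 CPM in control XY against 1.30 and 2.63 CPM in dKO XY, and *Esr2* at 0.509 and 2.29 against 0.701 and 0.705 CPM. *Pgr* had 0 UMIs in control XY and 2 and 0 in dKO XY. *Nr3c1* stood at 8.31 and 6.55 against 11.1 and 12.6 CPM. None of these receptors was called there, and their part in the target levels was not tested. Of 6 liver X receptor targets 1 was lower (*Abcg1*), and of 11 circadian partner genes tested 1 was lower (*Tef*, by 0.97 ± 0.15). Of 10 corepressors, 1, *Tbl1xr1*, was higher, and of 13 immediate early genes 1, *Atf3*.

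In interstitial cells, the largest class, 4 of 39 receptors tested differed between dKO XY and control XY, where 6.72% of all genes were called. Of these, 2 were higher and 2 lower, against 3.95% and 2.77% of all genes, and the median log2 fold change was -0.05 (-0.01 over all genes). Each of these 4 was under 10 CPM. *Rarg*, a retinoic acid receptor, stood at 8.61 and 7.22 CPM in control XY and 5.57 and 4.75 CPM in dKO XY, and fell by 0.62 ± 0.14 (adjusted p = 0.0406). *Thrb* fell by 0.76 ± 0.18 (2.49 against 1.47 CPM on average), and *Nr5a2* and *Nr2e3* were higher at means of 0.399 and 0.183 CPM. For *Nr2e3* this is 37 UMIs against 2, a ratio of 24.2 (6.25 to 207). *Nr5a2* stood at 9.63 and 11.6 CPM in dKO XY germ cells, 438 and 313 cells against 17 and 7 in control XY. The part of free RNA in its rise was not tested. Without control XY replicate 1, none of the 4 was called (1.7% of all genes), and without dKO XY replicate 2 or control XY replicate 2, 1 was (3.53% and 2.24%). *Nr2f2*, at 880 against 663 CPM, did not pass the test (-0.42 ± 0.12, adjusted p = 0.0771), although the groups did not overlap. The class holds its clusters in different shares in the 2 groups. A cluster led by *Sostdc1* and *Inhba* held 3368 and 3927 control XY and 2180 and 1117 dKO XY cells. One led by *Il33* and *Gdf10* held 275 and 245 control XY and 677 and 320 dKO XY cells.

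Between control XX and control XY interstitial cells, 20 of 39 receptors were called, against 25.4% of all genes, with 12 higher (12.1%) and 8 lower (13.3%). Between dKO XY and control XX, 17 were called, against 27.8%, with 7 higher (14.8%) and 10 lower (13%). *Esr1* stood at 34.4 and 27.3 CPM in control XX and 15.1 and 15.6 CPM in control XY, 1.06 ± 0.11 higher. *Rarb* was 1.42 ± 0.17 higher in control XX (10.5 against 4.08 CPM) and *Nr2f1*, a relative of *Nr2f2*, 0.90 ± 0.16 lower (19.0 against 37.5 CPM). The interstitial classes of the sexes hold different clusters, however. Of the 4523 control XX cells, 1551 and 2958 stood in the cluster led by *Il33* and *Gdf10*, which held 275 and 245 of the control XY cells.

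Within that cluster, 4 receptors were called between control XX and control XY (12.2% of all genes), an alternative chosen after seeing the data, and 1 of them had been called with the same sign in the whole class. That 1 was *Nr2f1*, at 93.5 and 83.4 CPM in control XY, 97.8 and 131 CPM in dKO XY and 16.9 and 21.2 CPM in control XX, a difference of -2.16 ± 0.18 between the controls (adjusted p = 3.10e-05). *Nr5a1* turned from 1.28 ± 0.21 lower in the class to 0.91 ± 0.24 higher in the cluster, where it stood at 7.45 and 7.38 CPM in control XY, against 16.9 and 10.6 CPM in control XX. The control XY levels lay below those of immune and endothelial cells given above and are not read as expression, while control XX endothelial cells had 13.5 and 9.02 CPM. The part of free RNA in this turn was not tested. *Esr2* turned too, from 2 UMIs in the control XY cells of the cluster. *Rarb*, *Rarg* and *Vdr* changed sign without passing the test. At a finer clustering resolution, the control groups stood unevenly in clusters with *Il33* or *Gdf10* among their leading genes. That with *Ajap1* and *Il33* held 1156 and 2091 control XX against 8 and 16 control XY cells. That led by *Foxp2* and *Col8a1* held 22 and 53 against 194 and 158. That led by *Crabp1* and *Gdf10* held 366 and 800 against 141 and 135. The cells compared above may thus still differ in kind, and the part of this was not tested.

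**Figure D3:**
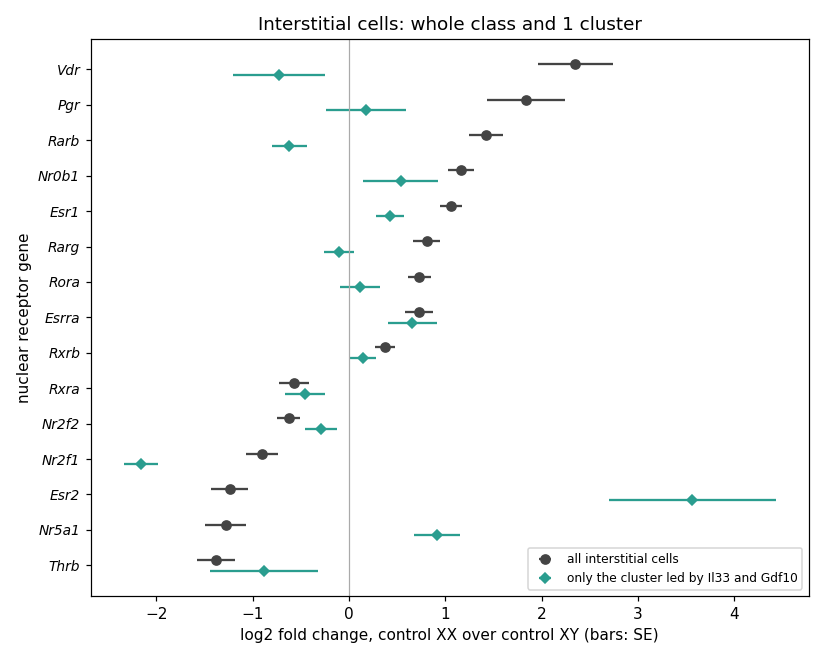
Log2 fold change of control XX over control XY (horizontal axis, bars are SE) for 15 nuclear receptor genes called in interstitial cells and tested in the cluster led by *Il33* and *Gdf10*, for the whole class (circles) and for that cluster (diamonds). *Nr2f1* lies further below 0 in the cluster, while *Nr5a1*, *Esr2*, *Rarb*, *Rarg* and *Vdr* lie on the other side of 0 than in the class. The control XY levels of *Nr5a1* in the cluster lay below those of control XY immune and endothelial cells.

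In Leydig cells, found only in the XY groups (1895 control XY and 1534 dKO XY cells), 3 of 35 receptors tested were called between dKO XY and control XY, where 8.84% of all genes were called. All 3 were lower and 0 higher, against 3.19% and 5.64% of all genes. *Esr1* (chromosome 10, 4611593 to 5005614), through which estrogens act on Leydig cells, stood at 36.4 and 37.9 CPM in control XY, against 21.7 and 25.5 CPM in dKO XY. It fell by 0.69 ± 0.10 (adjusted p = 0.00552) and passed in all 10 alternatives. *Thrb* fell from 16.0 and 16.1 CPM to 10.4 and 12.3 CPM, by 0.53 ± 0.12 (adjusted p = 0.0266), and *Rorb* fell by 1.17 ± 0.20 from a mean of 3.78 CPM. The groups did not overlap for these 3, and the share of all genes without overlap was not computed. *Nr5a1* did not pass (-0.36 ± 0.15, adjusted p = 0.201), nor did *Nr0b1* (0.02 ± 0.14), which rose in the supporting cells of the same libraries. The 6 Leydig markers summed to 33278 and 31313 CPM in control XY and 23309 and 23142 CPM in dKO XY. The count was 6 without dKO XY replicate 1 and 7 without dKO XY replicate 2, where 12.7% and 12.8% of all genes were called.

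The dKO difference was then compared between classes within 1 model. It differed between supporting and interstitial cells for 9 of 42 receptors, where 15% of all genes were called, with 5 differences above 0 (7.73% of all genes) and 4 below (7.29%). *Nr0b1* (1.92 ± 0.23), *Ppara* (2.33 ± 0.43) and *Nr2f6* (0.89 ± 0.13) rose more in supporting cells and *Rora* fell more (-1.64 ± 0.23). In interstitial cells *Nr0b1* stood at 3.49 and 3.58 CPM in control XY and 3.88 and 4.57 CPM in dKO XY, and *Rora* at 7.41 and 8.46 CPM against 7.69 and 7.77 CPM. None of these 4 passed the test in interstitial cells, where their log2 fold changes were 0.25 ± 0.13 for *Nr0b1*, 0.30 ± 0.23 for *Ppara*, -0.054 ± 0.10 for *Nr2f6* and -0.046 ± 0.12 for *Rora*.

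**Figure D4:**
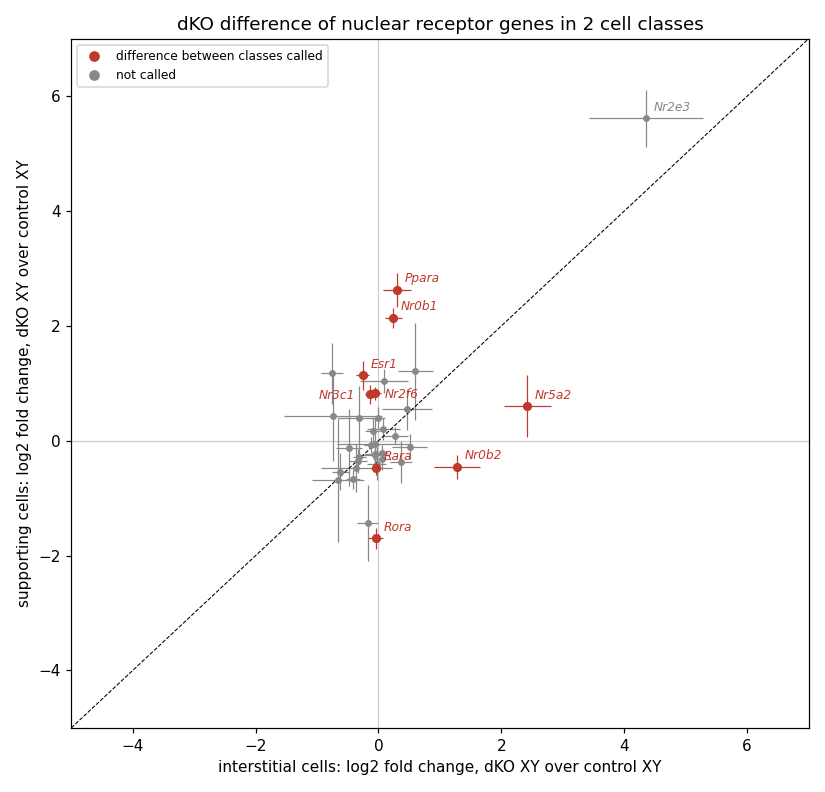
Log2 fold change of dKO XY over control XY in interstitial cells (horizontal axis) and supporting cells (vertical axis) for the nuclear receptor genes tested in both, with SE bars and a dashed line of equal change. The 9 receptors whose difference between classes was called are in red, with *Ppara*, *Nr0b1* and *Esr1* above the line and *Rora*, *Nr0b2* and *Nr5a2* below it.

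No receptor was called between dKO XY and control XY in endothelial cells (0 of 28, with 5 at an unadjusted p under 0.05), pericytes (0 of 26, with 4) or immune cells (0 of 23, with 3) by edgeR, nor by DESeq2. Of all genes, 0.575%, 0.275% and 0.0177% were called there (0.25% higher and 0.325% lower in endothelial cells, 0.158% and 0.117% in pericytes, 0.00883% in each direction in immune cells), in classes of 242 to 535 XY cells per group. *Nr4a1* in endothelial cells stood at 262 and 399 CPM in control XY, 206 and 108 CPM in dKO XY and 154 and 317 CPM in control XX. In immune cells it was at 336 and 346, 233 and 68.3 and 242 and 403 CPM. In both classes, as in interstitial cells (172 and 236, 251 and 66.0, 141 and 284 CPM), the lowest library was dKO XY replicate 2, the library with the lowest sums of immediate early genes, and *Nr4a2* was lowest there too in endothelial, immune and interstitial cells. Levels of the *Nr4a* genes are therefore given as values of these libraries.

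Germ cells could be compared only between dKO XY and control XX, since control XY gave 17 and 7 germ cells. The 2 groups hold different germ cells. At a clustering resolution of 0.5, 232 and 220 of the 258 and 230 control XX germ cells and 41 and 38 of the 438 and 313 dKO XY germ cells stood in a cluster led by *Sycp3* and *Syce3*, genes of the meiotic chromosome axis. The others, 26 and 10 control XX and 397 and 275 dKO XY cells, stood in a cluster led by *Dppa3* and *Dppa5a*, known from pluripotent and early germ cells. The cluster led by *Sycp3* and *Syce3* also held 105 and 77 control XX and 2 and 4 dKO XY cells of the supporting class. The differences below were not tested within these clusters. Of 35 receptors tested, 18 were called, where 51.1% of all genes were called, with 12 higher in dKO XY (26.0% of all genes) and 6 lower (25.2%). *Pparg*, best known from fat cells, stood at 22.4 and 25.7 CPM in control XX, against 1.37 and 1.59 CPM in dKO XY, lower by 3.99 ± 0.30 on the log2 scale (adjusted p = 1.07e-15). *Nr6a1* (GCNF), an orphan receptor of germ cells, stood at 76.1 and 61.2 CPM in control XX and 23.3 and 34.7 CPM in dKO XY. Within control XX, *Pparg* was 5.73 ± 0.41 and *Nr6a1* 4.27 ± 0.24 above supporting cells, among 35 of 42 receptors called there (72.4% of all genes), 12 higher (36.3%) and 23 lower (36.1%).

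*Nr2c2*, an orphan receptor of the testicular receptor pair, stood at 75.1 and 71.8 CPM in control XX and 26.2 and 32.5 CPM in dKO XY germ cells, and *Nr3c1* at 80.6 and 66.0 CPM against 38.4 and 47.7 CPM. Higher in dKO XY were *Esrrb* (8.09 and 8.04 against 1.24 and 1.02 CPM) and *Nr5a2* (9.63 and 11.6 against 2.07 and 1.92 CPM), both known from pluripotent cells. *Nr2f6* (60.9 and 65.0 against 29.9 and 24.2 CPM), *Thra* (48.6 and 54.9 against 22.2 and 16.0 CPM) and *Rara* (35.4 and 38.0 against 16.5 and 12.2 CPM) were higher too. In none of these 7 did the groups overlap, as in all 18 receptors called in germ cells. The share of all genes without overlap was not computed. *Nr5a1* was 1.96 ± 0.29 higher in dKO XY germ cells (11.5 and 21.02 against 4.35 and 4.10 CPM), where endothelial cells of the same dKO XY libraries had 16.0 and 22.1 CPM and immune cells 11.02 and 11.1 CPM. The 10 Sertoli markers summed to 502 and 740 CPM in dKO XY germ cells and 49.3 and 39.1 CPM in control XX, with 1 marker at 0 in control XX replicate 2. The 6 Leydig markers summed to 349 and 196 CPM against 8.59 and 8.20 CPM, with 2 and 1 markers at 0 in the control XX libraries. The part of somatic RNA in the levels of *Nr5a1*, *Thra*, *Nr2f6* and *Rara* was not tested.

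**Figure D5:**
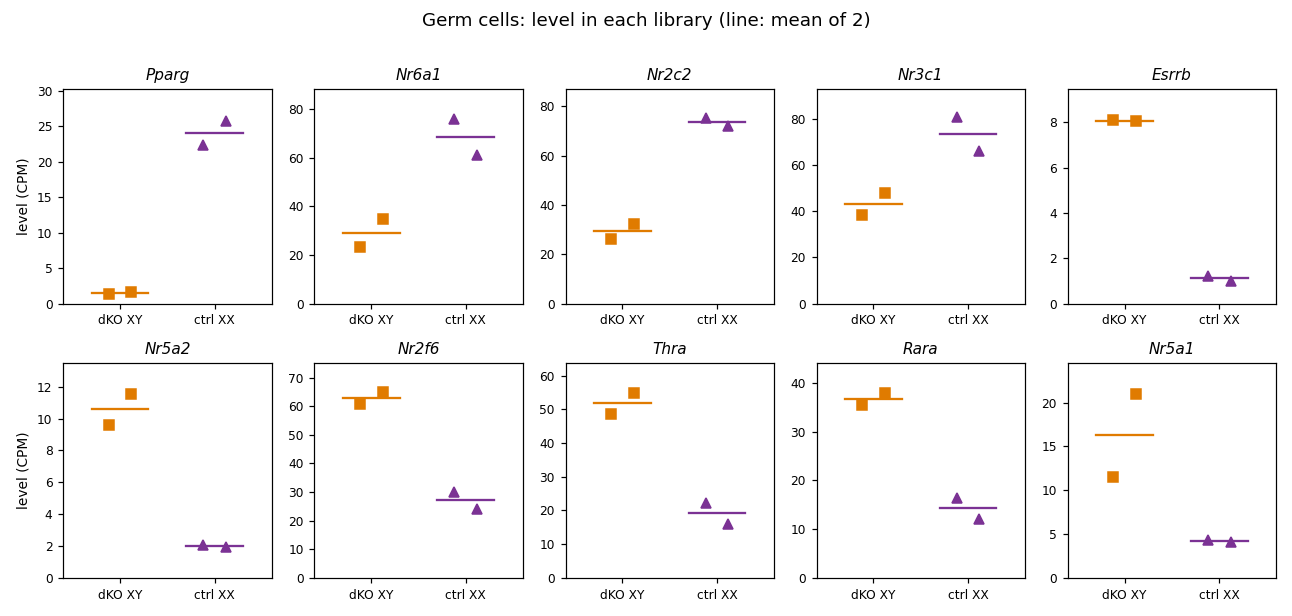
Level in CPM (vertical axis, from 0) of 10 nuclear receptor genes in the germ cells of each dKO XY and control XX library, with 2 points per group and a line at their mean. *Pparg*, *Nr6a1*, *Nr2c2* and *Nr3c1* are higher in control XX and the other 6 in dKO XY, with no overlap between the groups.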

How the data were processed

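Single cell mRNA sequencing (10x Genomics) of gonads at E15.5 gave 6 libraries. Per the labels and the study's methods, the authors made counts with Cell Ranger on mm10, with a correction for swapped barcodes, and the deposited matrices hold raw UMI counts by gene symbol; their own clustering used Seurat, for which the labels and the methods give different versions. Whether counting used strand or intronic reads is not given in the sources used here. Free RNA was not removed, and a gene that a library does not list was counted as 0.

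The study's limits on barcodes were applied: over 2500 genes, under 9000 genes, mitochondrial UMIs under 25% and *Hbb* UMIs under 20%. Clusters were made in R 4.3.3 with Seurat 5.3.0 (log-normalized counts, 3000 variable genes less 9 nuclear receptors, 20 dimensions, resolution 0.21, giving 12 clusters). A cluster took the class whose markers led it, if at least 3 markers had a UMI in 10% of its cells and 1.5 times the level of other cells. Supporting cells with log levels under 1 of *Sycp3* and *Tcf21* were clustered again (8 dimensions, resolution 0.25), and subclusters with Sertoli markers are the Sertoli-like cells. Names come from rebuilt clusters and can differ from those of the study. Doublets stayed in: Scrublet (scanpy 1.11.5) marked under 0.5% of cells in 3 libraries, so 1 alternative dropped the top 8% of cells by score.

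UMIs were summed per library and class with at least 10 cells and tested across all genes with edgeR 4.0.16 (filterByExpr, TMM, quasi-likelihood F test), with genotype as the factor and all groups that have the class sharing the spread, and called at a Benjamini-Hochberg adjusted p under 0.05. Classes of the same libraries were compared in 1 model over 45 sums with a library block. The standard error is the log2 fold change over the square root of F. Fold changes of genes at or near 0 UMIs depend on the prior count, so ratios of summed UMIs with exact 95% binomial intervals are given. Alternatives were DESeq2 1.42.0, all genes with any count, a replicate block, a fit to the 2 compared groups, leaving out each library, doublet scores, under 10% mitochondrial UMIs and a resolution of 0.5, and, chosen after seeing the data, single clusters left out or kept. The code was tested on simulated data.

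The members and gene lists were chosen with earlier results of these data known. Values per library are given for receptors called between dKO XY and control XY in supporting, Sertoli-like, interstitial or Leydig cells with a mean of at least 10 CPM in a group and for the highest receptor of each class; list genes are named where called in Sertoli-like cells, and others were named after their values were seen. The list of PPAR target genes is not reported here. GENCODE M21 (GRCm38) gave the coordinates by symbol, and promoter windows are from RefSeq (GRCm38.p6).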

Additional observations from a re-analysis of the deposited data

Results flagged for a closer look

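The dKO difference, dKO XY minus control XY on the log2 scale, was not the same in supporting and interstitial cells for 9 receptors, by a test of the difference itself. Values are the supporting minus the interstitial difference with SE. Those above 0 were *Ppara* (2.33 ± 0.43), *Nr0b1* (1.92 ± 0.23), *Esr1* (1.42 ± 0.23), *Nr3c1* (0.95 ± 0.14) and *Nr2f6* (0.89 ± 0.13). Those below 0 were *Nr5a2* (-1.74 ± 0.58), *Nr0b2* (-1.70 ± 0.34), *Rora* (-1.64 ± 0.23) and *Rara* (-0.42 ± 0.15). *Nr0b2* was called between dKO XY and control XY in neither class alone. *Rara* passed close to the limit (adjusted p = 0.0490 by edgeR). The *Nr5a2* difference rests on few UMIs, 25 and 15 in control XY and 74 and 117 in dKO XY supporting cells and 7 and 12 against 42 and 37 in interstitial cells, and its level in supporting cells, 3.02 and 0.939 CPM in control XY against 2.00 and 3.41 CPM in dKO XY, overlapped. Without the dKO-rich cluster led by *Myl1* and *Cck*, 9 receptors were called, 6 of them among these, and *Esr1* (0.29, adjusted p = 0.561), *Rara* (-0.26, adjusted p = 0.314) and *Nr5a2* (-1.55, adjusted p = 0.0787) no longer passed, by edgeR.

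Between Leydig and interstitial cells the difference was called for 1 of 42 receptors (2.38%), against 3.77% of all genes and 2.12% in that direction. It was *Nr5a1* (-0.65 ± 0.15, adjusted p = 0.0125), with 263 and 288 CPM in control XY and 178 and 263 CPM in dKO XY Leydig cells, and 33.5 and 35.6 CPM against 34.4 and 49.97 CPM in interstitial cells. The nearest libraries of the groups were less than 1 CPM apart in Leydig cells, and the groups overlapped in interstitial cells, and the call was lost when any of the XY libraries was left out. It passed in 2 of 9 alternatives.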

How the results depend on the processing

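Of 2299 values of called receptors under alternatives, over 18 comparisons, 2078 kept direction and call, 208 lost the call and 13 changed sign. The count of called receptors between dKO XY and control XY moved by over 1.5 times as follows. In interstitial cells it was 4, with the replicate block 2, at resolution 0.5 2, in the cluster led by *Il33* and *Gdf10* 0 and in the one led by *Sostdc1* and *Inhba* 2, and between 0 and 3 without 1 library. In Leydig cells it was 3, without the filter 8 and with the replicate block 11 (11.4% and 20.7% of all genes, against 8.84%), and between 2 and 7 without 1 library. In supporting cells it was between 7 and 12 without 1 library. In endothelial cells it was 0, without the filter 2 and without 1 library 0 to 2. In pericytes it was 0, without the filter 3, with only the 2 groups compared 1 and without 1 library 0 to 2, and in immune cells 0, without the filter 3. The count for the Leydig against interstitial difference was 1, without the filter 2, without the highest doublet scores 2, at under 10% mitochondrial UMIs 0, at resolution 0.5 0 and without 1 library 0. In the cluster led by *Sostdc1* and *Inhba*, the 2 called between dKO XY and control XY were *Nr5a2* (2.87), also called in the class, and *Esr1* (-0.50), not called there. *Rarg* (-0.61) and *Thrb* (-0.85) did not pass in it. In the cluster led by *Il33* and *Gdf10*, control XX against control XY gave 4 in place of 20 and dKO XY against control XX 4 in place of 17.

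Log2 fold changes that changed sign in that cluster were, for control XX against control XY, *Esr2* (3.57), *Nr5a1* (0.91), *Rarb* (-0.62), *Rarg* (-0.11) and *Vdr* (-0.73), and for dKO XY against control XX *Esr2* (-1.28), *Nr3c1* (0.53), *Nr5a1* (-0.28), *Ppara* (-1.09) and *Rarb* (0.32). The others were *Esr1* in dKO XY supporting cells without the cluster led by *Myl1* and *Cck* (-0.011), *Nr1h2* in supporting against interstitial cells of control XY at under 10% mitochondrial UMIs (-0.026) and *Rarb* in germ against supporting cells of control XX, between -0.078 without control XX replicate 1 and 3.58 without replicate 2. The cause was not tested. At under 10% mitochondrial UMIs the median over all genes in that control XY comparison moved to -0.33, so those changes are relative to it.

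In supporting and interstitial cells, deviations of same-numbered libraries correlated between -0.21 and 0.10, so replicate numbers did not pair the libraries there. In the other classes, Leydig cells among them, no such correlation was computed. The replicate block is given only here. Receptors under about 1 CPM rest on few UMIs, and their fold changes are the least precise.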

Other observations

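The epithelial cells, named by markers such as *Upk3b* and *Krt19*, were in no comparison. In them *Nr0b1* stood at 2.57 and 3.26 CPM in control XY, 45.1 and 32.1 CPM in dKO XY and 30.5 and 20.7 CPM in control XX, and *Nr5a1* at 8.57 and 9.12, 49.2 and 61.0 and 43.6 and 22.9 CPM. *Nr0b2* was at 0 in both control XY libraries, with 16.6 and 10.2 CPM in dKO XY and 13.8 and 5.07 CPM in control XX. *Nr2f2* went the other way, with 408 and 481 CPM in control XY, 172 and 311 CPM in dKO XY and 148 and 247 CPM in control XX. The control XY values come from 30 and 38 cells, those of dKO XY from 192 and 297, those of control XX from 210 and 113, and were not tested.

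The 62 dKO XY cells that fell in a subcluster of supporting cells held mostly by control XX had *Nr0b1* at 63.5 and 47.3 CPM, against 27.8 and 32.4 CPM in the 1341 control XX cells of that subcluster. *Nr2e3* stood at 12.7 and 13.2 CPM in those dKO XY cells and 9.97 and 6.67 CPM in the control XX cells. These dKO XY levels come from 47 and 15 cells with 1259525 and 528701 UMIs over all genes, so they rest on few UMIs and were not tested. The 20 dKO XY granulosa-like cells were too few in replicate 2 to give a level. *Nr5a2* was higher in endothelial cells than in the other somatic classes of dKO XY, at 15.01 and 13.5 CPM, with 13.3 and 10.0 CPM in control XY and 15.6 and 13.7 CPM in control XX.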
